A study of Rattus norvegicus with 9 samples.

Results

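Cytosolic ribosomal protein genes encode the proteins of the small and large subunits of the ribosome that translates nuclear messages in the cytoplasm. Members were taken by symbol from the deposited gene table: symbols that begin with Rpl or Rps and a digit, plus Rpsa, Rplp0, Rplp1 and Rplp2, without the S6 kinases and without pseudogene symbols. The rule matched 105 rows, of which 10 were S6 kinases and were dropped, and 9 further rows of 7 repeated symbols gave way to the row with the highest mean. This left 86 members of the 21138 genes in the table, 35 with Rps symbols (Rpsa included) and 51 with Rpl or Rplp symbols. By name, 28 are proteins of the small subunit, 40 of the large subunit, 3 of the stalk of the large subunit and 14 are paralogs of another ribosomal protein. The last, Rps19bp1, is a binding protein of a ribosomal protein and not a part of the ribosome.

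Hippocampal RNA of wild-type (WT) male Sprague-Dawley rats, 6 months old, was sequenced on Day 56 in 3 groups with 3 libraries each. CK rats were not operated and received 0.9% saline by nasal spray, 0.5 mL a day for 8 weeks. VD rats had both common carotid arteries tied, which lowers blood flow to the forebrain and serves as a model of vascular dementia, and received the same saline. INS + VD rats had the same operation and received intranasal insulin at 1 U/kg/day for 8 weeks. The sham-operated group of the study was not analysed here. The operation is therefore shared by VD and INS + VD, and the saline spray by CK and VD. The libraries are described as biological replicates, but not which rats they came from, so each p-value reflects only how these libraries varied, which may be partly technical.

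The eukaryotic ribosome joins a small subunit, which reads the message, to a large subunit, which forms the peptide bonds and carries a flexible stalk that recruits the elongation factors. Each ribosome holds about equal numbers of nearly all its proteins, and their messages are among the most abundant in any tissue. Many of these messages start with a C followed by a run of pyrimidines, the 5′ terminal oligopyrimidine (TOP) motif, through which the TOR kinase pathway, itself activated by insulin, controls their translation. That control acts on translation, which was not measured here.

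The start-site sequences are shown because this motif is the feature that ribosomal protein genes are best known to share, and the rule that chose the members did not use it. In the RefSeq promoter table (GRCr8), 66 of the 86 members had an entry. A pyrimidine run was counted where a C within 5 bases of the annotated start was followed by at least 5 C or T, on the strand of the gene. It was present in 34 of the 66 members (51.5%) and in 2676 of all 27457 promoters (9.75%). On the opposite strand it was present in 2 of the 66 members (3.03%) and in 3498 of all promoters (12.7%). Among members, 32 of 57 with a plain ribosomal protein symbol held the run (56.1%), against 2 of 9 paralogs and binding protein together (22.2%). Each window below holds 10 bases before the annotated start and 20 bases from it, 5′ to 3′ on the strand of the gene, and capitals mark the pyrimidine run. The first 6 are members of both subunits and the stalk that hold the run, all but Rpl31 with a mean of at least 100 FPKM. The last 3 are a ribosomal protein paralog whose values went against the others, the binding protein and a stress-induced paralog, and they hold none.
Rplp1: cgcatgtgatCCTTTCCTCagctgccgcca
Rps15: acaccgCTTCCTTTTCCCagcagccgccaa
Rplp0: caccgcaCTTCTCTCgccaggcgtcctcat
Rpl10: gtgggagcgtCTCTTTTCCTCTggcgcggt
Rps24: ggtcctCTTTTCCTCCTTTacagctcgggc
Rpl31: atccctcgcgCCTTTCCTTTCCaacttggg
Rpl7l1: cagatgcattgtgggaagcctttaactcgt
Rps19bp1: tgtgggcggggcttggcagcatgtcggcgg
Rps27l: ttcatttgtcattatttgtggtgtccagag
In GRCr8 these windows lie at chr8:71290853-71290882 (minus strand) for Rplp1, chr7:10068096-10068125 (minus) for Rps15, chr12:46718371-46718400 (minus) for Rplp0, chrX:157205840-157205869 (plus) for Rpl10, chr16:96507-96536 (plus) for Rps24 and chr9:49143101-49143130 (plus) for Rpl31. The windows without the run lie at chr9:21695708-21695737 (plus) for Rpl7l1, chr7:113693004-113693033 (minus) for Rps19bp1 and chr8:76443648-76443677 (plus) for Rps27l. A match is a description of these letters and not of a start measured in these rats.

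Levels are in FPKM, fragments per kilobase of gene model scaled to the fragments mapped in the library. Dividing by length allows levels of different genes to be set side by side. The mean over the 9 libraries was at least 1000 FPKM for 1 member, Rplp1, from 100 to 1000 FPKM for 45 members, from 10 to 100 for 22, from 1 to 10 for 9 and below 1 for 9. For the tests, 80 members were among the 15099 genes that reached 0.5 FPKM in 3 or more of the 9 libraries. The 6 that were not tested were Rplp2, Rpl38, Rpl3l, Rpl30l1, Rpl35al1 and Rps10l1. The Rplp2 row, for the third stalk protein, was listed at 0 in 6 libraries and held 0.165 FPKM in VD replicate 3, 0.157 in INS + VD replicate 2 and 0.326 in INS + VD replicate 3. The Rpl38 row held 0.269 FPKM in VD replicate 3 and was listed at 0 in the other 8 libraries. Rpl3l, known as the muscle form of Rpl3, did not exceed 0.243 FPKM in any library. No row carried the symbol Rps19 or Rpl22, so neither is a member. Rows described as their proteins enter the sums per protein given below.

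A row at or near 0 does not mean a message at 0, because ribosomal proteins have many near-identical copies in the genome and reads can be divided among them. In the table, 187 rows are described as a cytosolic ribosomal protein or a copy of one, 85 of which are members, and 64 of the 102 other rows exceeded 1 FPKM on average. Of the 71 proteins with a member row, 46 had other rows as well, and for 10 the member row held less than 50% of the summed FPKM. The Rplp2 row held 0.08% of the sum of its protein, and the copy LOC498555 had a mean of 65.6 FPKM. For Rps6, the substrate of the S6 kinases, the row held 1.93% of the sum, and the copy LOC100911372 had a mean of 22.6 FPKM. For Rpl9, the row held 0.81% and LOC100360449 had a mean of 223 FPKM. These rows are therefore uncertain as levels of their proteins. Rows were also summed per protein: 76 of 78 proteins with a ratio were at least 2 times as high in VD replicate 1 as in the median of the 8 other libraries, against 74 of 80 for the members tested taken row by row.

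One library stood apart. VD replicate 1 was the highest of the 9 libraries for 74 of the 86 members. The ribosomal protein genes took 1.91%, 1.90% and 2.99% of the summed FPKM in CK replicates 1 to 3, 8.57%, 2.53% and 2.97% in VD replicates 1 to 3, and 1.85%, 2.55% and 1.74% in INS + VD replicates 1 to 3. The mean share was 2.27% ± 0.627 (SD, n = 3) in CK, 4.69% ± 3.37 (SD, n = 3) in VD and 2.05% ± 0.437 (SD, n = 3) in INS + VD. Apart from VD replicate 1, the groups overlapped, since CK replicate 3 lay above both other VD libraries and INS + VD replicate 2 above VD replicate 2. In the 80 members tested, the ratio of VD replicate 1 to the median of the 8 others ran from 0.332 to 9.33 with a median of 4.70, and was at least 3 in 70 members. The 6 members below a ratio of 2 were Rpl7l1 (0.332), Rps9 (0.870), Rpl39 (0.956), Rpl7a (1.13), Rpl10l (1.14) and Rpl12 (1.70). With rows summed per protein the ratio was 3.37 for the protein of Rpl12 and 1.54 for that of Rpl7a, and for that of Rpl39 it was also above 2.

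**Figure D1:**
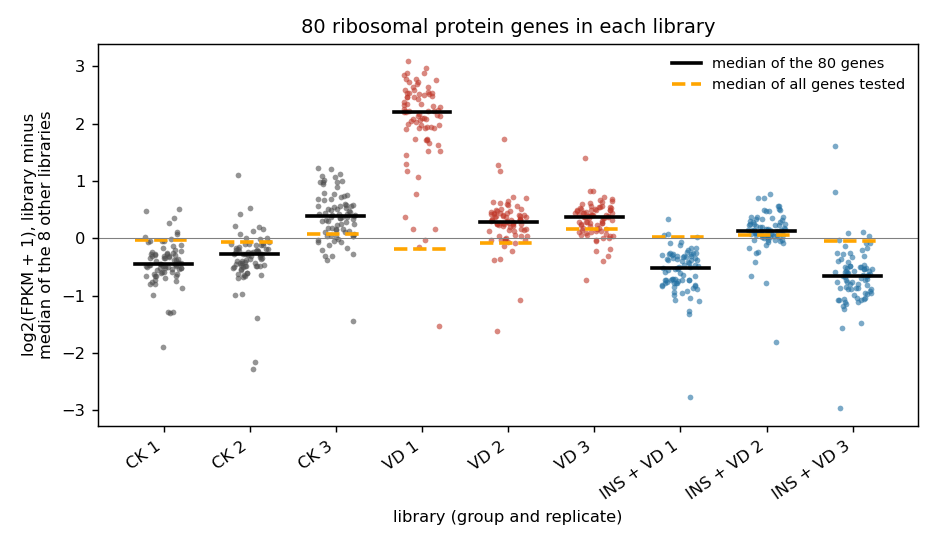
Difference of log2(FPKM + 1) in each library (x axis) from the median of the 8 other libraries (y axis, log2 units) for the 80 members tested (points), with the members' median (black line) and the median of all 15099 genes tested (dashed line). The members' median was 2.21 in VD replicate 1 and between -0.65 and 0.39 in the other 8 libraries, while the median of all genes was -0.19 in VD replicate 1.

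The members also varied together in the other libraries, over a smaller range. The plot of the members by library shows medians of -0.45, -0.28 and 0.39 log2 units in CK replicates 1 to 3. For VD the medians were 2.21, 0.29 and 0.37, and for INS + VD they were -0.51, 0.13 and -0.65. Replicate 3 of CK, replicates 2 and 3 of VD and replicate 2 of INS + VD were thus above the others and near each other. The lowest library of the 80 members tested was INS + VD replicate 3 for 42, CK replicate 1 for 17, INS + VD replicate 1 for 9 and CK replicate 2 for 8. As a description, the correlation of each member with the median of the members over the 9 libraries had a median of 0.946, and 62 of 80 reached 0.9. Over the 8 libraries without VD replicate 1 the median was 0.837 and 28 reached 0.9. The members share these libraries and their scaling.

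VD replicate 1 also differed from the other libraries over the table as a whole. Its FPKM values summed to 635759, against 453716 to 548857 in the others. It had 14428 genes above 0, against 17441 to 18088, and 568 genes, none of them members, were at 0 in it and above 1 FPKM in all other libraries. Its values varied with the span of a gene in the genome. Over all genes tested, the median log2 difference of VD replicate 1 from the 8 others was 0 for spans up to 1000 bases, 0.31 for 1000 to 3000, 0.47 for 3000 to 10000, -0.57 for 30000 to 100000 and -0.95 for spans over 100000 bases. Members are short, with a median span of 2621 bases against 19018 for all genes tested. Among spans of 1000 to 3000 bases the median was 2.38 for 33 members tested, of any level. It was 1.23 for 91 other genes with a mean of at least 100 FPKM, a limit not set for the members. That mean includes VD replicate 1 itself. The part of this library's RNA quality, depth or tissue content in the members' values was not tested. The number of members called and the members' median are therefore given with and without this library, in both comparisons with the VD group.

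The comparison VD vs. CK sets rats with tied carotid arteries against unoperated rats. Without a sham library here, ligation and the rest of the operation cannot be told apart. Of the 80 members tested, 16 were higher in VD with an unadjusted p of at most 0.05 (limma) and a log2 fold change of at least 1, and 0 were lower. Over all 15099 genes the same rule called 3.89% higher and 4.89% lower. With Benjamini-Hochberg adjustment over all genes tested, limma called 0 members and 0 genes, and the smallest adjusted p of a member was 0.202 (Rps4y2). By unadjusted p alone, limma called 19 members higher (6.41% of all genes) and 0 lower (6.34%). The median log2 fold change on the log2(FPKM + 1) scale was 0.94 for the members and -0.02 for all genes, and 78 of 80 members were on the positive side (48.7% of all genes). The VD libraries were all above the CK libraries for 23 members (9.74% of all genes), and below for 0 (8.27%). Without VD replicate 1, 2 members were called higher, Rps4y2 and Rpl21 (3.65% of all genes), and 0 lower (2.43%). The median was 0.33, with 68 of 80 positive (52% of all genes). The 2 remaining VD libraries were above all CK libraries for 23 members (16.7% of all genes) and below them for 2, Rpl31 and Rpl41 (10.8%). Other libraries moved the count of 16 too, given here with the share of all genes called higher. It was 3 without CK replicate 1 (3.07%) and 3 without CK replicate 2 (3.21%). Without VD replicate 2 it was 34 (6.7%), and without VD replicate 3 it was 31 (5.22%). It was 8 when INS + VD replicate 1 was left out (3.53%) and 10 for INS + VD replicate 3 (3.61%).

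The counts were spread over both subunits. Of all genes tested, 3.89% were called higher in VD vs. CK and 4.89% lower. In VD vs. CK, 5 of 28 small subunit members, 9 of 39 large subunit members tested, 1 of 2 stalk members tested and 1 of 10 paralogs tested were called higher, and 0 in any of these groups were called lower. Median log2 fold changes were 0.99, 0.96, 1.22 and 0.78 in that order, and 0.33, 0.31, 0.54 and 0.26 without VD replicate 1.

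The stalk proteins Rplp0 and Rplp1 bind the factors that drive elongation. Rplp1 (table position 8:66862143-66863476, minus strand) was the most abundant member, with 677, 624 and 587 FPKM in the CK libraries, 5537, 899 and 943 in the VD libraries and 574, 775 and 582 in the INS + VD libraries. All VD libraries were above all others, with VD replicate 1 over 5 times as high as the next. The log2 fold change of Rplp1 in VD vs. CK was 1.41 (SE 0.64, adjusted p = 0.394 by limma), and 0.55 without VD replicate 1. Rplp0 held 270, 284 and 342 FPKM in the CK libraries, 1199, 397 and 462 in the VD libraries and 286, 348 and 250 in the INS + VD libraries. Again each VD library was above each CK library, with a log2 fold change of 1.02 (SE 0.42) that was 0.52 without VD replicate 1. Table positions are printed as deposited. The submitters' processing notes name the mouse builds GRCm38 and mm10 while the gene identifiers are of rat, so the build of these positions could not be settled.

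Among small subunit proteins, Rpsa, which is also known as the laminin receptor, held 267, 263 and 334 FPKM in the CK libraries, 1765, 409 and 464 in the VD libraries and 301, 409 and 295 in the INS + VD libraries. Its groups did not overlap in VD vs. CK, with a log2 fold change of 1.28 (SE 0.52). Rps3, which lies where the message enters the ribosome, held 211, 235 and 372 FPKM in the CK libraries, 1324, 351 and 371 in the VD libraries and 252, 317 and 213 in the INS + VD libraries. Here CK replicate 3 lay level with VD replicate 3 and above VD replicate 2, and the log2 fold change was 1.07 (SE 0.51). Rps27a is made as a fusion to ubiquitin. It held 149, 131 and 540 FPKM in the CK libraries, 1104, 341 and 248 in the VD libraries and 147, 272 and 215 in the INS + VD libraries, so that CK replicate 3 exceeded every library but VD replicate 1. Its log2 fold change in VD vs. CK was 1.05 (SE 0.67, unadjusted p = 0.154 by limma). A further row named Rps27a on another chromosome averaged 312 FPKM, so the split of reads between these rows is uncertain. Rps6 held at most 0.816 FPKM in any library, 0.0747 to 0.315 in CK and 0.732 to 0.816 in VD, and its row is the uncertain one described above.

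Rps4x and Rps4y2 are paralogs for the same small subunit protein. Rps4x, the abundant one, held 108, 109 and 144 FPKM in the CK libraries, 625, 183 and 220 in the VD libraries and 133, 163 and 107 in the INS + VD libraries. Rps4y2 held 3.69, 3.73 and 6.21 FPKM in the CK libraries, 20.2, 23.6 and 10.6 in the VD libraries and 6.54, 5.97 and 11.9 in the INS + VD libraries. The VD values of both lay above all CK values. Rps4y2 was one of few members whose highest library was not VD replicate 1 but VD replicate 2. Its log2 fold change in VD vs. CK was 1.75 (SE 0.40, unadjusted p = 0.00164 and adjusted p = 0.202 by limma), and 1.64 without VD replicate 1. For Rps4x the values were 1.29 (SE 0.45) and 0.74 without that library.

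Large subunit proteins gave the members with the largest differences. Rpl17 (table position 18:70970596-70975494, plus strand), a protein near the exit of the peptide tunnel, held 140, 57.0 and 273 FPKM in the CK libraries, 1330, 451 and 273 in the VD libraries and 37.0, 243 and 32.0 in the INS + VD libraries. Its level varied several-fold within each group. The log2 fold change in VD vs. CK was 2.07 (SE 0.90, unadjusted p = 0.0468 by limma), and 1.43 (unadjusted p = 0.169) without VD replicate 1. Rpl21 held 109, 102 and 260 FPKM in the CK libraries, 1632, 464 and 278 in the VD libraries and 163, 338 and 146 in the INS + VD libraries. All VD libraries were above all CK libraries, with a log2 fold change of 2.06 (SE 0.67, unadjusted p = 0.0129 by limma), and 1.33 (unadjusted p = 0.0345) without VD replicate 1. Rows named Rpl21 on other chromosomes averaged up to 88.9 FPKM, so this level too depends on how reads were divided.

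Other large subunit members with known roles had smaller differences. Rpl3, next to the centre that forms peptide bonds, held 83.3, 81.1 and 136 FPKM in the CK libraries, 353, 134 and 155 in the VD libraries and 89.2, 125 and 91.3 in the INS + VD libraries. CK replicate 3 was just above VD replicate 2, and the log2 fold change was 0.99 (SE 0.40), under the threshold of 1. Rpl5 and Rpl11 form a complex that binds Mdm2 when ribosome assembly is disturbed. Rpl5 held 151, 146 and 229 FPKM in the CK libraries, 950, 244 and 289 in the VD libraries and 180, 227 and 146 in the INS + VD libraries, a log2 fold change of 1.24 (SE 0.50) with groups that did not overlap. Rpl11 held 19.4, 22.9 and 31.7 FPKM in the CK libraries, 116, 25.9 and 33.5 in the VD libraries and 18.2, 27.0 and 15.2 in the INS + VD libraries, a log2 fold change of 0.92 (SE 0.52) with groups that overlapped. Rpl10, a late-joining protein of the large subunit, held 230, 247 and 307 FPKM in the CK libraries, 690, 383 and 358 in the VD libraries and 257, 393 and 232 in the INS + VD libraries. Its VD libraries were all above the CK libraries, and the log2 fold change was 0.81 (SE 0.35).

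**Figure D2:**
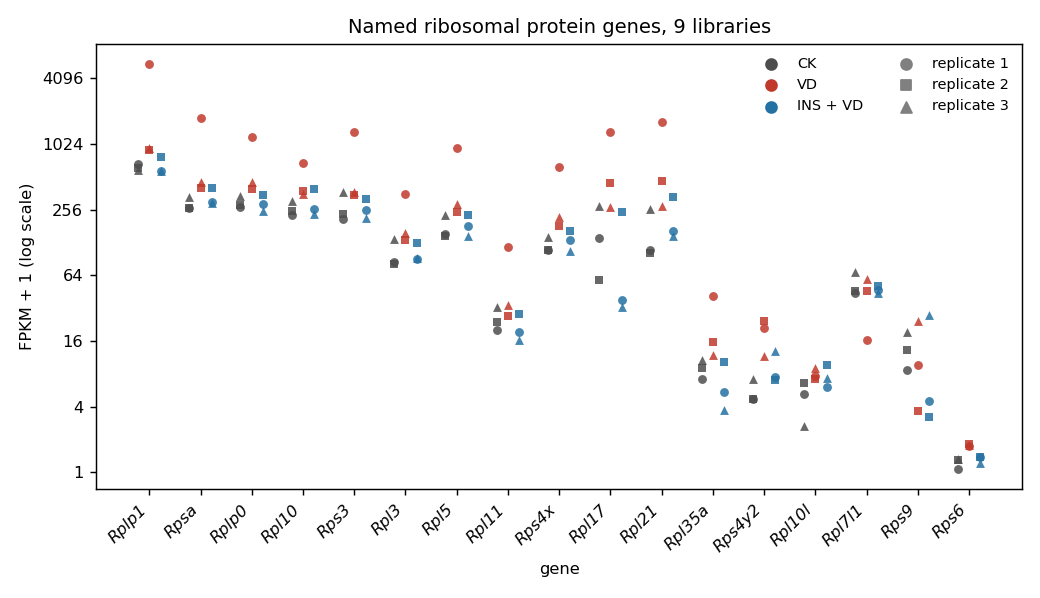
FPKM + 1 (y axis, log scale) of named ribosomal protein genes (x axis) in each of the 9 libraries, coloured by group with 1 marker shape per replicate. VD replicate 1 is the top point for Rplp1 (5537 FPKM), Rpl17 (1330) and Rpl21 (1632), and the lowest for Rpl7l1 (15.2).

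Not every member shared the pattern. Rpl7l1 (table position 9:16508799-16513120, plus strand), a paralog of Rpl7, held 43.4, 45.04 and 67.2 FPKM in the CK libraries, 15.2, 45.2 and 57.8 in the VD libraries and 46.1, 50.3 and 42.9 in the INS + VD libraries. It was lowest in VD replicate 1, the library where most members were highest. Its log2 fold change in VD vs. CK was -0.55 (SE 0.45, unadjusted p = 0.251 by limma), and 0.01 without VD replicate 1. Rps9, whose row has the longest span among the members tested (71897 bases), held 7.69, 12.2 and 18.6 FPKM in the CK libraries, 8.65, 2.68 and 23.2 in the VD libraries and 3.53, 2.21 and 27.0 in the INS + VD libraries. Its values spread widely within every group, and the log2 fold change was -0.46 (SE 0.89). These were the only members tested on the negative side in VD vs. CK. Rpl31, in contrast, held 35.8, 36.1 and 53.5 FPKM in the CK libraries, 138, 27.1 and 30.5 in the VD libraries and 25.1, 35.5 and 25.3 in the INS + VD libraries. Both other VD libraries were below all CK libraries, so that its log2 fold change of 0.24 (SE 0.56) was -0.50 without VD replicate 1. Rpl7a stayed between 5.05 and 9.85 FPKM in all 9 libraries, with a log2 fold change of 0.24. Most of the message of its protein was in other rows.

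The paralogs and the binding protein were mostly low. Rpl22l1, a paralog of Rpl22, was the most abundant of the paralogs, with 64.2, 52.2 and 78.3 FPKM in the CK libraries, 360, 78.5 and 56.6 in the VD libraries and 40.7, 77.3 and 33.1 in the INS + VD libraries. Outside VD replicate 1 its VD and CK values overlapped, and the log2 fold change in VD vs. CK was 0.86. Rps27l, a paralog of Rps27 induced by the tumour suppressor p53, held 4.58, 5.85 and 9.41 FPKM in the CK libraries, 12.9, 9.02 and 6.36 in the VD libraries and 5.32, 4.97 and 3.87 in the INS + VD libraries, a log2 fold change of 0.45 with overlapping groups. Rps19l2, an Rps19 paralog, held 66.3, 10.2 and 44.0 FPKM in the CK libraries, 261, 50.8 and 72.7 in the VD libraries and 43.1, 52.0 and 55.2 in the INS + VD libraries. Its CK libraries differed by more than 6 times among themselves. A second row of this symbol held 6.12, 37.6 and 18.6 FPKM in CK, high where the first was low, and the first lies on another chromosome than the RefSeq gene, so the split of reads between these rows is uncertain. The log2 fold change of the first row in VD vs. CK was 1.63 (SE 0.73, unadjusted p = 0.0532 by limma). Rps19bp1 held 11.4, 10.6 and 11.5 FPKM in the CK libraries, 51.4, 11.2 and 13.7 in the VD libraries and 9.40, 11.4 and 9.42 in the INS + VD libraries. VD replicate 1 stood far above its other 8 libraries, and the log2 fold change was 0.79. Rpl10l, known in mouse as a testis paralog of Rpl10, held 4.24, 5.61 and 1.64 FPKM in the CK libraries, 6.69, 6.11 and 8.13 in the VD libraries and 5.03, 8.60 and 6.28 in the INS + VD libraries. It was one of the few members whose highest library was not VD replicate 1, and its log2 fold change was 0.82 (SE 0.39). Rps18l1 and Rps15al4 reached 31.1 and 27.1 FPKM in VD replicate 1, above their other libraries, which went up to 11.6 and 8.43. Rpl36al and Rpl39l did not exceed 4.14 and 2.67 FPKM in any library, and each was listed at 0 in at least 1.

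The comparison INS + VD vs. VD sets operated rats given intranasal insulin against operated rats given the saline spray. The saline spray is not described for INS + VD, so insulin and any other difference in the spray cannot be told apart. This comparison shares its VD libraries with VD vs. CK, so a high value in a VD library raises 1 difference and lowers the other by construction. Of the 80 members tested, 34 were lower in INS + VD with an unadjusted p of at most 0.05 (limma) and a log2 fold change of -1 or less, against 2.54% of all genes. 0 were higher (3.64% of all genes). After adjustment over all genes tested, limma called 0 members and 0 genes, with a smallest adjusted p among the members of 0.512. By unadjusted p alone, limma called 36 members lower (4.48% of all genes) and 0 higher (4.9%). The median log2 fold change was -1.17 for the members and 0.04 for all genes, and 79 of 80 members were on the negative side (47% of all genes). The INS + VD libraries were all below the VD libraries for 43 members (7.6% of all genes). Without VD replicate 1, 2 members were called lower, Rpl17 and Rpl35a (1.42% of all genes), and 0 higher (1.5%). The median was then -0.56, with 80 of 80 negative (53.7% of all genes), and the groups did not overlap for 43 members, all lower (13.2% of all genes lower, 10.5% higher). The count of 34 also moved, given here with the share of all genes called lower. It was 57 without VD replicate 2 (6.44%) and 52 without VD replicate 3 (4.39%). It was 3 when INS + VD replicate 1 was left out (1.66%) and 3 without INS + VD replicate 3 (0.934%). Without CK replicate 1 it was 18 (2.11%), and without CK replicate 2 it was 17 (2.05%).

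Called lower in INS + VD vs. VD were 2.54% of all genes tested. By structural group these were 17 of 28 small subunit members, 15 of 39 large subunit members tested, 1 of 2 stalk members tested and 1 of 10 paralogs tested. Median log2 fold changes were -1.28, -1.22, -1.22 and -0.87 in that order, and -0.60, -0.57, -0.54 and -0.34 without VD replicate 1.

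Rpl17 had the largest difference of the members tested, with a log2 fold change in INS + VD vs. VD of -3.02 (SE 0.90, unadjusted p = 0.00819 by limma). INS + VD replicates 1 and 3, at 37.0 and 32.0 FPKM, were far below INS + VD replicate 2 at 243. Without VD replicate 1 the value was -2.38 (unadjusted p = 0.036). Rpl35a, a large subunit protein whose row is on another chromosome than the RefSeq gene of this symbol, held 6.18, 8.07 and 9.68 FPKM in the CK libraries, 40.3, 14.6 and 11.02 in the VD libraries and 4.50, 9.19 and 2.73 in the INS + VD libraries. All INS + VD libraries lay below all VD libraries, with a log2 fold change of -1.74 (SE 0.52, unadjusted p = 0.0088 by limma), and -1.21 (unadjusted p = 0.0221) without VD replicate 1. Whether this row is the gene itself or a copy was not settled, so its level is uncertain.

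Among small subunit members, Rps24 held 96.9, 95.5 and 165 FPKM in the CK libraries, 777, 177 and 132 in the VD libraries and 67.1, 129 and 64.8 in the INS + VD libraries. The INS + VD group was below the VD group by -1.66 on the log2 scale (SE 0.63), with INS + VD replicate 2 just under VD replicate 3. Rps15a held 26.9, 29.5 and 61.9 FPKM in the CK libraries, 197, 35.4 and 32.0 in the VD libraries and 16.3, 32.0 and 14.6 in the INS + VD libraries, a log2 fold change of -1.58 (SE 0.68) with INS + VD replicate 2 level with VD replicate 3. Rps21 held 45.9, 39.3 and 89.4 FPKM in the CK libraries, 302, 43.5 and 49.7 in the VD libraries and 23.4, 62.4 and 15.5 in the INS + VD libraries, a log2 fold change of -1.58 (SE 0.77, unadjusted p = 0.07 by limma). For Rps21 the groups overlapped. In each of these INS + VD replicate 2 was about 2 times or more the level of the other INS + VD libraries. Rps4x differed by -1.14 (SE 0.45), and by -0.59 without VD replicate 1. For Rps4y2 the values were -1.05 (SE 0.40) and -0.94, and its INS + VD replicate 3 lay above VD replicate 3.

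The abundant members and those with known roles had log2 fold changes in INS + VD vs. VD of -1.39 for Rplp1 (SE 0.64, adjusted p = 0.512 by limma) and -1.05 for Rplp0 (SE 0.42). Without VD replicate 1 these were -0.53 and -0.55. The differences were -1.07 for Rpsa, -1.11 for Rps3, -1.15 for Rps27a and -0.42 for Rps6. In the large subunit they were -0.94 for Rpl3, -1.16 for Rpl5, -1.21 for Rpl11 and -0.67 for Rpl10. Of these 10, the members past both limits were Rplp0, Rpl5 and Rpl11.

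Several of the members that stood apart in VD replicate 1 had small differences. Rpl7l1 was the one member tested on the positive side, at 0.42 (SE 0.45), and -0.14 without VD replicate 1. The log2 fold change was -0.08 for Rpl10l, -0.36 for Rps9 and -0.36 for Rpl7a. Rps2, a small subunit protein near the decoding site, held 156, 149 and 191 FPKM in the CK libraries, 350, 155 and 209 in the VD libraries and 131, 169 and 136 in the INS + VD libraries, a log2 fold change of -0.63. Its INS + VD replicate 2 lay above VD replicate 2. Of the paralogs, Rpl22l1 differed by -1.30 and Rps27l by -0.83 (SE 0.35). The binding protein Rps19bp1 differed by -0.94.

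**Figure D3:**
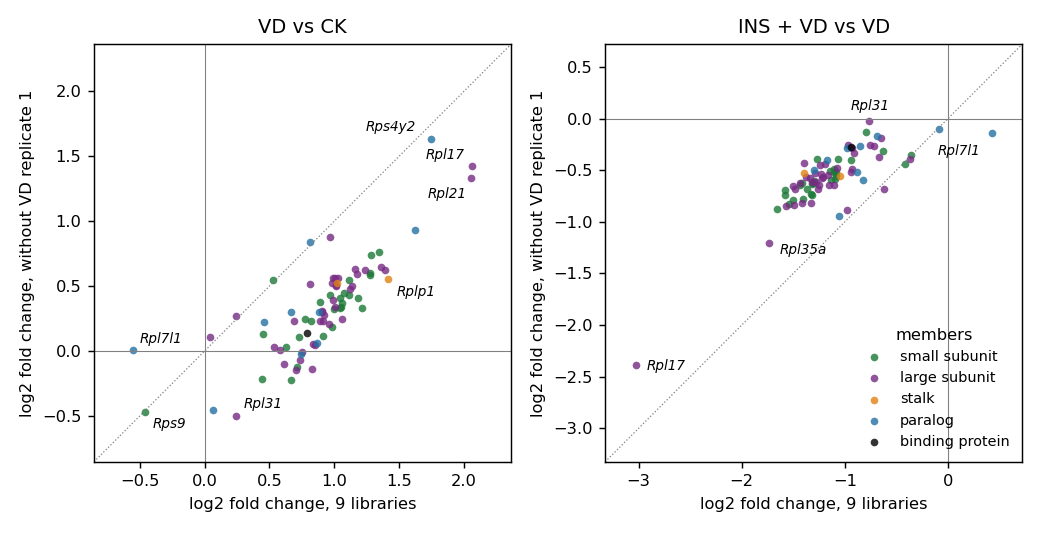
Log2 fold change on the log2(FPKM + 1) scale with all 9 libraries (x axis) against the same without VD replicate 1 (y axis) for the 80 members tested, coloured by structural group, with VD vs. CK on the left and INS + VD vs. VD on the right. The members' median goes from 0.94 to 0.33 in the first comparison and from -1.17 to -0.56 in the second.

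The comparison INS + VD vs. CK sets insulin-treated operated rats against unoperated rats. By limma, 0 of 80 members were called in either direction (0.636% of all genes higher, 0.305% lower), and 0 members reached an unadjusted p of 0.05 or an adjusted p of 0.05. The median log2 fold change was -0.23, with 59 of 80 members on the negative side (50.3% of all genes). The groups did not overlap for 3 members, Rpl30, Rpl31 and Rpl41, all lower in INS + VD (5.27% of all genes), and for 0 members higher (5.85%). Rpl30 held 142, 156 and 322 FPKM in the CK libraries, 1026, 197 and 154 in the VD libraries and 102, 130 and 102 in the INS + VD libraries, a log2 fold change of -0.79 (SE 0.66, unadjusted p = 0.26 by limma). At the ends of the range, Rpl17 differed by -0.96 (SE 0.90), Rps21 by -0.91, Rps15a by -0.86 and Rps9 by -0.82. On the positive side Rpl10l differed by 0.73 (SE 0.39), Rps4y2 by 0.69 (SE 0.40), Rps19l2 by 0.65, Rpl21 by 0.49 and Rpl6 by 0.37.

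The same values were read for members with and without the pyrimidine run at their start, and the difference between these sets was not tested. Starts were matched by symbol. Of 83 members with a RefSeq gene of the same symbol, 9 have their row on another chromosome, Rpl9 and Rpl35a among those with the run. For these the start and the level may belong to different copies. In VD vs. CK the median log2 fold change was 0.91 for 33 tested members with the run and 0.95 for 28 without. The counts called higher were 6 and 5 (3.89% of all genes). In INS + VD vs. VD the medians were -1.26 and -1.15, and the counts called lower were 15 and 10 (2.54% of all genes). Members on both sides are represented in the windows shown above, with Rplp1 and Rps24 among those with the run and Rpl7l1 among those without.

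Rack1, a scaffold on the small subunit, is a close partner that the symbol rule left out. It held 69.7, 73.7 and 119 FPKM in the CK libraries, 288, 102 and 136 in the VD libraries and 80.3, 106 and 71.2 in the INS + VD libraries. Like most members it was highest in VD replicate 1. Its log2 fold change was 0.89 in VD vs. CK and -0.90 in INS + VD vs. VD.

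Other gene lists of translation and of small, abundant proteins were read in the same fit, beside the members' 16 of 80 higher in VD vs. CK. There, 3.89% of all genes tested were called higher and 4.89% lower. Of 10 translation elongation factors, 0 were called in either direction, with a median log2 fold change of 0.46, and 0.23 without VD replicate 1. Of 37 initiation factors 0 were higher and 1 was lower, Eif4g3, with a list median of 0.27. Of 18 other genes with TOP messages, 1 was higher, the intermediate filament gene Vim (1.93), and 0 lower. Their list median was 0.77, and 0.37 without VD replicate 1. Of 43 ribosome biogenesis genes 0 were called, with a list median of 0.28 that was -0.07 without VD replicate 1. The TOR and S6 kinase pathway, by contrast, had a negative median of -0.39, and -0.28 without VD replicate 1. Of its 19 genes 1 was higher, the transcription factor Myc, and 3 were lower, including the kinase gene Akt2 and the TOR complex gene Rictor. When VD replicate 1 was left out, 1 was higher and 0 were lower (3.65% and 2.43% of all genes).

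The same shares of all genes called in VD vs. CK, 3.89% higher and 4.89% lower, stand beside the lists of other complexes. Among these, 1 of 77 mitochondrial ribosomal protein genes was higher, Mrps28, and 0 were lower. Their median was 0.58, and 0.10 without VD replicate 1. Of 80 nuclear genes for oxidative phosphorylation subunits 1 was higher, Ndufa12, and 0 lower, with a median of 0.57, and 0.09 without that library. Of 38 proteasome genes 2 were higher, the immunoproteasome genes Psmb8 and Psmb9, and 0 lower, with a median of 0.49, and 0.14 without it. The medians of the members, 0.94 and 0.33, were above those of these other complexes in both readings. For the other TOP genes they were 0.77 and 0.37, so the second was above that of the members. This is a description of the lists and was not tested.

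In INS + VD vs. VD, beside the members' 34 of 80 lower, 15 of 80 oxidative phosphorylation genes were lower and 0 higher, with a median log2 fold change of -0.86, and 2 were lower without VD replicate 1, with a median of -0.36. Over all genes tested, 2.54% were called lower and 3.64% higher. Of the mitochondrial ribosomal protein genes 2 of 77 were lower, and of the proteasome genes 3 of 38, with 0 higher in either list. The elongation and initiation factors had 0 called in either direction, with medians of -0.51 and -0.34. Of the 18 other TOP genes 1 was lower and 0 were higher. Ribosome biogenesis had 1 of 43 higher, Nhp2. The TOR and S6 kinase list had 2 of 19 higher, including Larp1, which encodes a protein that binds TOP messages. When VD replicate 1 was left out, that list had 0 higher and 0 lower (1.5% and 1.42% of all genes). Its median was 0.26, and 0.03 without that library. In INS + VD vs. CK, 1 gene of these lists was called higher, again Nhp2 (0.636% of all genes), and 0 were lower (0.305%).

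**Figure D4:**
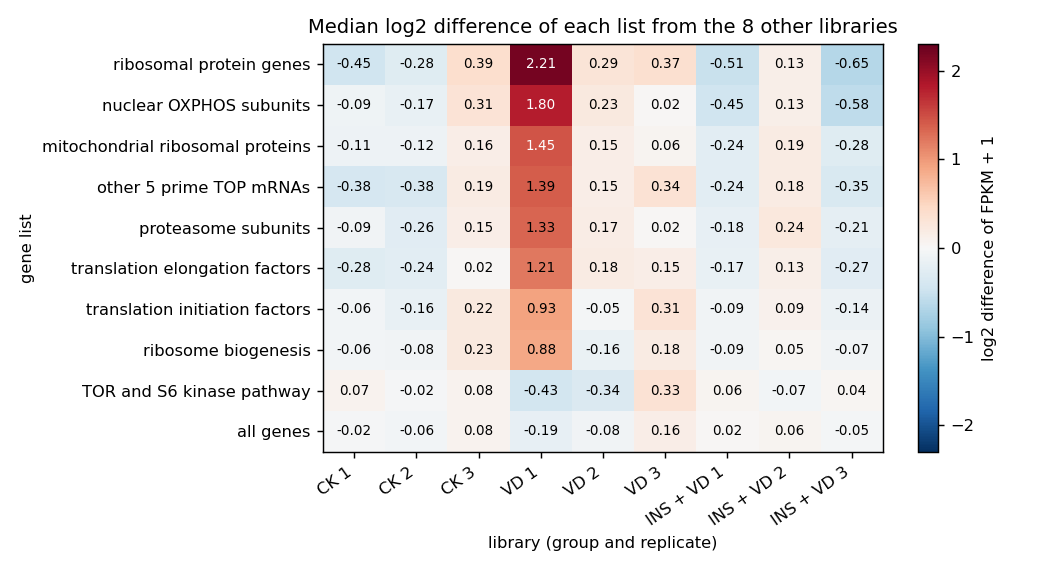
Median difference of log2(FPKM + 1) from the 8 other libraries (colour, log2 units) for each gene list (y axis) in each library (x axis). In VD replicate 1 the medians were 1.80 for oxidative phosphorylation, 1.45 for mitochondrial ribosomal proteins, 1.33 for the proteasome and -0.43 for the TOR and S6 kinase pathway, against 2.21 for the members.

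The libraries also differed in the tissue markers they held. In whole tissue RNA, fewer cells of a type and less RNA per cell cannot be told apart. Camk2a, a kinase gene of excitatory neurons that was singled out after its values were seen, was at 876 to 1018 FPKM in 4 libraries, replicates 1 and 2 of CK together with replicates 1 and 3 of INS + VD, which had ribosomal protein shares of 1.74% to 1.91%. In the other 5 libraries, all of VD among them, it was at 14.7 to 330 FPKM and the share was 2.53% to 8.57%. Camk2a made up most of the sum of the 11 hippocampal excitatory neuron markers in those 4 libraries. The other 10 markers, when summed, did not divide the libraries in this way. Without Camk2a they summed to 427 FPKM in CK replicate 2 and 447 in INS + VD replicate 1, against 476 in CK replicate 3 and 437 in VD replicate 1, whose ribosomal protein shares were higher. The median log2 difference of the marker list from the 8 other libraries was 0.97 in CK replicate 3. It was 0.55 and 0.35 in CK replicates 1 and 2, and 0.54 and 1.38 in INS + VD replicates 1 and 3. In VD replicates 1 to 3 it was -1.13, -2.44 and -0.84, and in INS + VD replicate 2 it was -1.89. Of the 5 libraries with low Camk2a, CK replicate 3 alone had a positive median. Among the 5 libraries with low Camk2a the full sum did not order the share either, at 458 FPKM for VD replicate 1 with 8.57% and 81.0 FPKM for VD replicate 2 with 2.53%. Spink8 and Fibcd1, markers of hippocampal CA1 neurons, did not exceed 0.379 and 0.673 FPKM in any library. The label of the tissue is that of the sample titles, and the markers did not bear it out equally in every library. The part of tissue content in the members' values was not tested.

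**Figure D5:**
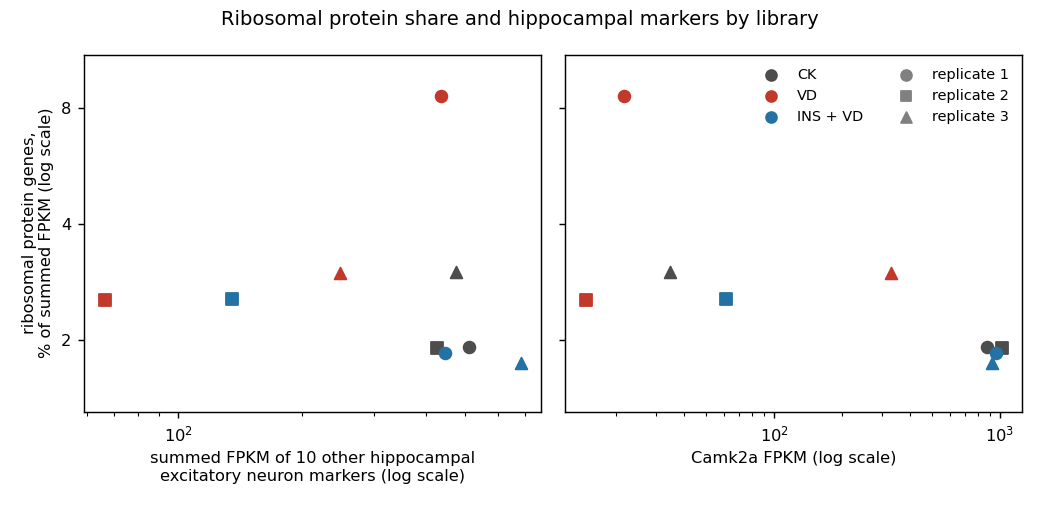
Share of summed FPKM taken by the 86 ribosomal protein genes (y axis, percent, log scale) against the summed 10 other hippocampal excitatory neuron markers and against Camk2a (x axes, FPKM, log scale), with 1 point per library coloured by group and shaped by replicate. The 4 libraries with Camk2a of 876 to 1018 FPKM have shares of 1.74% to 1.91% and the 5 others 2.53% to 8.57%, while on the sum of the other markers CK replicate 3 (476 FPKM) and VD replicate 1 (437 FPKM) lie among those 4.

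Markers of other tissues and cells also stood out in some libraries. The cerebellar granule cell markers summed to 2592 FPKM in CK replicate 3 against 23.9 to 120 in the others, and the hindbrain markers to 129 FPKM in VD replicate 2 against at most 7.32. The oligodendrocyte markers summed to 15208 FPKM in VD replicate 2, and the choroid plexus markers to 1701 FPKM in INS + VD replicate 1 against at most 8.38. The olfactory bulb markers summed to 396, 72.5 and 776 FPKM in VD replicates 1 to 3, to 435 in CK replicate 3 and to 336 in INS + VD replicate 2, the 5 libraries with the higher ribosomal protein shares, against 9.36 to 32.7 in the 4 others. Their list median, however, was -1.08 log2 units in CK replicate 3, 0.18 in VD replicate 2 and 0.47 in INS + VD replicate 2. In VD replicates 1 and 3 it was 2.28 and 4.83, and in the 4 others -0.92 to -0.58. Plasma cell markers summed to 617 and 894 FPKM in VD replicates 1 and 3 and to at most 112 in the others. Of the 12 microglia and macrophage markers, 7 were called higher in VD vs. CK (3.89% of all genes). The 12 summed to 514 to 786 FPKM in VD, 140 to 353 in CK and 275 to 421 in INS + VD. Meningeal markers summed to 1603 to 5954 FPKM in VD and 425 to 944 in the other groups. The share of these cells in the members' values was not tested. An alternative chosen after seeing the data left out replicate 3 of CK and replicate 2 of both operated groups. In it, 29 members were called higher in VD vs. CK (6.05% of all genes). When VD replicate 1 and CK replicate 3 were left out, 4 were (3.93% of all genes).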

How the data were processed

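RNA of 9 hippocampal libraries was sequenced, and the authors aligned the reads with HISAT2 and deposited 1 table of FPKM values. The counting program is not given in the sources used here. The paper reports a narrow range of sequencing yield across its samples, but mapped reads per library are not given. Precision therefore rests on the 3 libraries per group. 0 value columns were left unused. FPKM values were transformed to log2(FPKM + 1), which understates changes of low genes, and rows with at least 0.5 FPKM in at least 3 libraries (15099) were fitted with limma 3.58.1 in R 4.3.3, 3 groups in 1 fit without a block and with a prior spread that follows the mean. Calls needed an unadjusted or Benjamini-Hochberg adjusted p of at most 0.05 and a log2 fold change of 1 or more in size. The 3 comparisons share libraries. Named members were the 5 highest and 5 lowest fold changes per comparison (mean of at least 1 FPKM), members with listed roles, all paralogs and the highest and lowest means; of other lists, up to 4 genes with the smallest p. Rpl9, Rpl12, Rpl39, Rpl41, Rps15, Camk2a, the CA1 markers and the LOC copies were named after their values were seen. Members and lists were chosen with earlier results of these data known, and the marker and pathway lists come from an earlier analysis of them. The fit was tested on simulated data. Same-numbered libraries of different groups did not deviate together (r from -0.317 to 0.383, other pairs -0.362 to 0.385), so the numbers were not treated as pairs. Alternatives changed the pseudocount, filter, scaling, prior, library weights, libraries in the fit and block, and left out each library. Promoter sequences were RefSeq's (GRCr8), matched by symbol. Some genes that the naming rule takes are not reported here.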

Additional observations from a re-analysis of the deposited data

How the results depend on the processing

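Direction held for the members' medians under every alternative run: 0.33 to 1.48 in VD vs. CK, -1.70 to -0.56 in INS + VD vs. VD and -0.39 to -0.08 in INS + VD vs. CK. Counts past the adjusted p were 0 in every alternative run. The count past the unadjusted p and the fold change was 16 higher in VD vs. CK and 34 lower in INS + VD vs. VD. With an equal sum per library it was 8 and 12 (2.5% and 1.29% of all genes). With library weights it was 5 and 12 (3.83% and 1.72%). With only the 6 libraries compared it was 5 and 11 (3.27% and 1.81%). It was 9 in VD vs. CK with quantile normalization (4.36%). With the replicate number as a block it was 9 and 15 (3.81% and 2.23%), although the numbers do not pair the libraries. Leaving out each library in turn gave 2 to 34 in VD vs. CK (3.07% to 6.7% of all genes). In INS + VD vs. VD it gave 2 to 57 (0.934% to 6.44%). In INS + VD vs. CK it gave 0 to 1 (0.378% to 1.19% of all genes higher, 0.219% to 0.57% lower). Leaving out VD replicate 1 and CK replicate 3 together gave 4 and 2 (3.93% and 1.56% of all genes). Without replicate 3 of CK and replicate 2 of both operated groups the count was 29 in VD vs. CK (6.05%). The latter alternatives were chosen after seeing the data. Equal sums moved the median of all genes to -0.19 in VD vs. CK and 0.22 in INS + VD vs. VD, and median centring to 0.16 and -0.12. Among 67 fold changes of named members, 10 changed sign somewhere, in 23 of 1403 values. With libraries left out, values in VD vs. CK ran from -0.50 to 0.84 for Rpl31, -0.56 to 0.90 for Rpl36al, -0.92 to 0.21 for Rpl7l1, -0.026 to 1.32 for Rps15al4, -1.14 to 0.51 for Rps9 and -0.070 to 0.44 for the ribosome biogenesis median, the negative ones of Rpl31, Rps15al4 and ribosome biogenesis being without VD replicate 1. With library weights Rpl31 was -0.19, Rpl36al -0.47 and Rpl7l1 0.014, and with equal sums Rpl36al was -0.057. In INS + VD vs. VD the range was -0.34 to 0.075 for Rpl10l, -0.14 to 0.79 for Rpl7l1 and -1.32 to 0.31 for Rps9, and Rpl10l was 0.12 with equal sums. In INS + VD vs. CK it was -0.12 to 1.17 for Rps19l2 and -1.78 to 0.073 for Rps9. The cause of these changes beyond the libraries left out was not tested. Mapped reads per library are not given, and 3 libraries per group limit every value.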
